A study of Mus musculus with 9 samples.

Results

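Endoplasmic reticulum folding and quality control was followed through 32 genes for chaperones, disulfide and prolyl isomerases, lectin-cycle proteins, translocation factors, stress sensors and degradation factors. They were taken by gene symbol from the 32594 genes counted, from a list drawn up with earlier results of these data known, and all 32 were found and passed the filter on low counts. In hindlimb muscle of SMN delta 7 mice 16 of the 32 genes were lower than in wild type and 2 were higher, beside 27.2% lower and 27.7% higher among all genes tested, and with libraries scaled to total counts alone 13 were lower and 10 higher. The 56.2% of them that changed lies near the 54.9% of all genes that did. The 3 translocation genes all fell, and so did 7 of 9 chaperones and cofactors and 4 of 7 isomerases and oxidation factors. Of 7 degradation genes 0 fell and 1, Syvn1, rose.

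RNA libraries were made from hindlimb skeletal muscle, 5 of wild type and 4 of SMN delta 7 mice, 9 in all, and both groups were on the FVB/N strain background. SMN delta 7 mice, abbreviated SMA, serve to model spinal muscular atrophy, where motor neurons die and muscles waste for want of survival motor neuron protein. The labels give no treatment, age, allele structure or litter, and they do not say that each library came from its own animal, so the p-values rest on how these libraries vary, and part of that variation may be technical. The comparison asked how muscle of SMA mice differed from wild type muscle.

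Totals ran from 24917665 to 34094645 counts per wild type library and from 30746646 to 35087722 per SMA library. Smn1, the mouse gene for the survival motor neuron protein, was at 13.1, 13.5, 13.8, 11.1 and 13.3 CPM (counts-per-million after scaling of library totals) in wild type and at 1.80, 2.24, 1.40 and 2.72 CPM in SMA and every SMA library was far below wild type. Y-linked genes were expressed in 4 of 5 wild type and 1 of 4 SMA libraries. Sex, as read from these genes, was thus partly confounded with group. With sex as a covariate 6883 of all genes passed the threshold used below, against 8712 without it. On the second principal component over genes SMA 3 lay at -43.4 and the remaining SMA libraries at 14.6 to 15.4, and wild type 5 had the highest wild type position, at 18.2.

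Markers of several cell types moved with the groups. Of 10 muscle fibre markers 8 fell and 0 rose, and their summed level was 140000 to 199000 CPM in wild type and 73600 to 88300 CPM in SMA. Of 14 fibroblast and matrix markers 12 fell and 1 rose, with summed levels of 6150 to 11500 CPM and 4070 to 5600 CPM. The 1 that rose was Pdgfra, with means of 37.7 CPM in wild type and 47.6 CPM in SMA. Most of the sum was Col1a1, Col1a2, Col3a1 and Sparc. Their means were 1410, 1840, 2450 and 1760 CPM in wild type and 486, 755, 1570 and 1230 CPM in SMA. Fibroblasts and antibody-secreting cells are rich in folding factors of the endoplasmic reticulum. Plasma and B cell markers, of which 4 of 7 tested fell, summed to 19.6 to 31.3 CPM and 14.1 to 20.8 CPM. Most of that sum was Sdc1, with means of 17.5 CPM in wild type and 11 CPM in SMA. The defining genes Ms4a1 and Tnfrsf17 were too low to test in either group. Their means were 0.181 and 0.107 CPM in wild type and 0.0558 and 0.083 CPM in SMA, with 0 in 2 and 1 SMA libraries. Macrophage markers (6 of 10 fell, 1 rose) summed to 134 to 172 and 85.7 to 113 CPM, and tendon markers (8 of 8 fell) to 129 to 298 and 71.7 to 127 CPM. Schwann cell markers (7 of 8 rose) summed to 408 to 944 and 1050 to 2360 CPM, and satellite cell markers (4 of 8 rose, 1 fell) to 125 to 161 and 154 to 190 CPM. Endothelial markers (2 of 10 fell) summed to 859 to 1050 and 805 to 1020 CPM, and adipocyte markers (1 of 10 rose, 3 fell) to 333 to 810 and 561 to 684 CPM. Most of the adipocyte sum was Fabp4, the 1 that rose, with means of 387 and 571 CPM. Those that fell were Ucp1 (43.3 to 0.901 CPM), Plin1 (5.33 to 1.67 CPM) and Lep (1.59 to 0.0205 CPM, with 0 in 2 SMA libraries). The median log2 fold change of the adipocyte markers was -0.87, and -0.26 without wild type 5. With libraries scaled to total counts alone, fewer markers of some lists fell: 6 fibroblast and matrix, 3 macrophage, 2 plasma and B cell, 2 adipocyte and 0 endothelial. In each of these lists 1 rose. The counts moved little for muscle fibre (8 fell, 1 rose), tendon (7 fell), Schwann cell (7 rose) and satellite cell markers (5 rose, 1 fell). The part of these cell types in the results below was not tested, and in bulk tissue fewer cells of a type and less RNA per cell cannot be told apart.

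Proteins that are secreted or built into membranes enter the endoplasmic reticulum through a translocon, fold there with the help of chaperones and disulfide isomerases, and are carried back to the cytosol for degradation when folding fails. Unfolded proteins are sensed by IRE1 (gene Ern1), ATF6 and PERK, which set off the unfolded protein response: IRE1 splices Xbp1 messenger RNA, ATF6 is cut to release a transcription factor, and PERK slows translation. In muscle the same membrane system forms the sarcoplasmic reticulum, which stores calcium for contraction and holds many of its proteins with the help of these chaperones.

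Of the 32 genes, 2 rose, 16 fell and 14 did not pass. The test was the quasi-likelihood test of edgeR, with p-values adjusted after Benjamini and Hochberg across 15873 genes and a threshold of 0.05. With the share called so near that of all genes, a change as such says nothing particular about these genes. By direction, 50% of them fell where 27.2% of all genes fell, and 6.25% rose where 27.7% of all genes rose. The median log2 fold change (SMA against wild type) was -0.24, beside 0.01 over all genes, and the median absolute change was 0.36, beside 0.39. For 18 of the 32 genes the ranges of the groups were separate, 16 lower and 2 higher in SMA, beside 44.2% of all genes, 21.7% lower and 22.6% higher. Changes were modest in size: 2 genes fell at least 2-fold and 0 rose at least 2-fold, beside 6.28% and 8.27% of all genes.

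The balance of directions depends on the scaling. Scaling to total counts alone, without the trimmed mean of M values, shifted the log2 fold changes of all genes by a median of 0.23, and 74.7% of all calls were then higher in SMA, against 50.4%. Under it 10 of the 32 genes rose and 13 fell, and their median was -0.02, beside 0.24 over all genes. A share of all counts is itself a scaling to total counts. By it the 32 genes took 0.176% to 0.216% in wild type libraries and 0.189% to 0.202% in SMA libraries, ranges that overlap. Under the trimmed mean they summed to 2012 to 2169 CPM in wild type and 1640 to 1856 CPM in SMA, without overlap. Changes below are therefore relative to the bulk of genes. Across 18 alternatives 13 genes were called lower in every one: Dnajb11, Hspa5, Manf, Sdf2l1, Pdia3, Pdia4, Pdia6, Erp44, Calr, Xbp1, Serp1, Ssr1 and Sec61b. Syvn1 was the 1 gene called higher in every one.

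**Figure D1:**
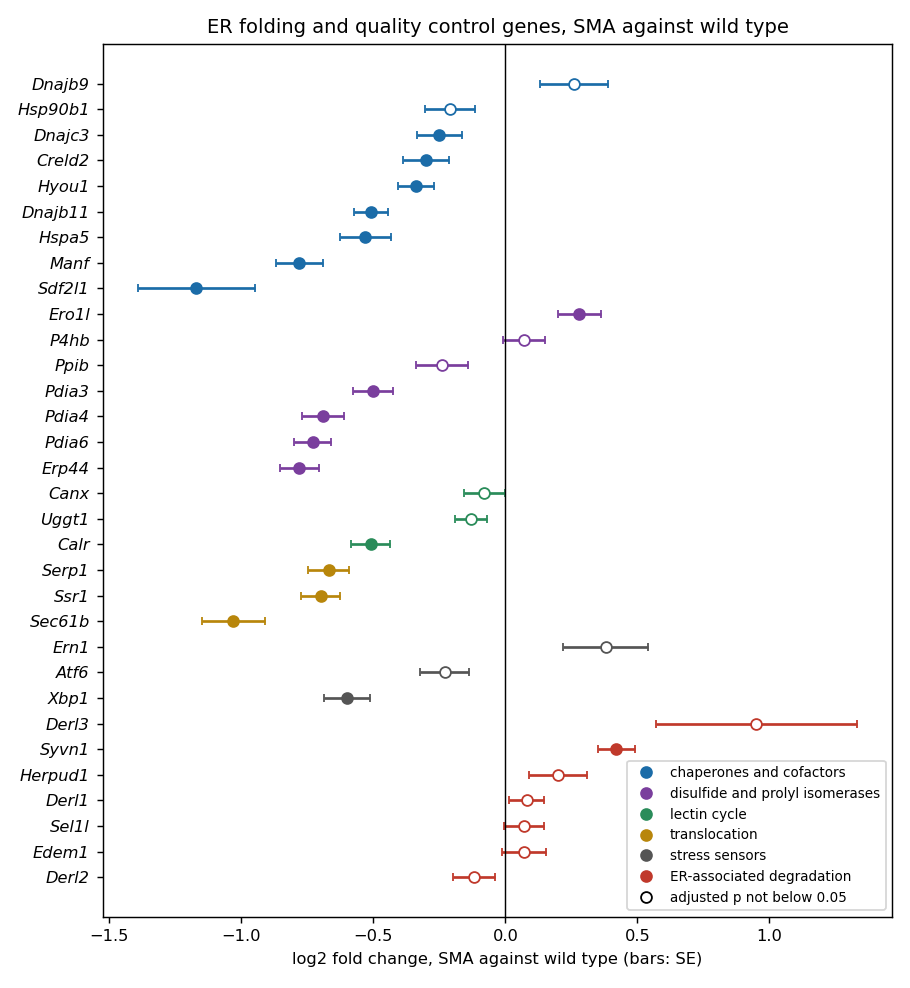
Log2 fold change of each of the 32 genes, SMA against wild type, with its standard error, coloured by role; open circles did not pass the adjusted p of 0.05. All 3 translocation genes lie at -0.67 or below, while Syvn1 at 0.42 is the 1 degradation gene that passed and 0 degradation genes fell.

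Because several of these genes are textbook targets of ATF6 and XBP1, their promoters were searched for the endoplasmic reticulum stress element (ERSE), which is CCAAT, any 9 bases and CCACG, and for ERSE-II, which is ATTGG, any 1 base and CCACG, on both strands. RefSeq promoters on GRCm38.p6 (the assembly also called mm10), from 250 bases before to 50 after a start, were matched for 28 of the 32 genes; Atf6, Hyou1, Manf and Derl1 had no entry. An exact ERSE was found in 9 of the 28, or 32.1%, against 0.137% of all 27025 genes with a promoter, and in 0.119% of all 32851 promoters. An exact ERSE-II was found in Dnajb11 and Herpud1, or 7.14%, against 0.0444% of all genes. With textbook targets among the genes searched, high shares were likely in advance, and enrichment was not tested. The core TGACGTGG of another element, UPRE, which on the opposite strand holds the CCACG of the ERSE and can overlap it, was found in 0 of the 28 and in 0.714% of all genes. The sites are shown because genes carrying the same element differed in direction in these muscles; capitals mark the element, lower case its flanks, and each line reads 5′ to 3′ along the gene's strand.
Hspa5 (chr2:34772020-34772048, plus strand): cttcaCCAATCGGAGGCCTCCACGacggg
Calr (chr8:84847060-84847108, minus strand): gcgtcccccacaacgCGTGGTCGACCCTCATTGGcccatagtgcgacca
Pdia6 (chr12:17266476-17266524, plus strand): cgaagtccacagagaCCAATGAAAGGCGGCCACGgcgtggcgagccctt
Creld2 (chr15:88819505-88819553, plus strand): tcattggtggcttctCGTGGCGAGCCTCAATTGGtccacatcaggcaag
Dnajc3 (chr14:118937812-118937860, plus strand): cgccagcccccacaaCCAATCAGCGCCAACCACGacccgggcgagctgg
Hsp90b1, distal site (chr10:86705623-86705671, minus strand): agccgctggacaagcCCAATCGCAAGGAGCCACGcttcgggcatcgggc
Hsp90b1, proximal site (chr10:86705518-86705566, minus strand): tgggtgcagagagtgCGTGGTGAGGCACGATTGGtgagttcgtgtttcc
Canx (chr11:50325785-50325833, minus strand): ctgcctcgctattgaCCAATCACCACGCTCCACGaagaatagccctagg
Derl3 (chr10:75893227-75893275, plus strand): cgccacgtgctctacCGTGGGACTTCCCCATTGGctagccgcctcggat
Syvn1 (chr19:6046517-6046565, plus strand): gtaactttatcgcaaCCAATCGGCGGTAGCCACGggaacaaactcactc
Dnajb11, ERSE-II (chr16:22857843-22857871, plus strand): ccggcggcgATTGGCCCACGcctggctgc
Herpud1, ERSE-II (chr8:94386362-94386402, plus strand): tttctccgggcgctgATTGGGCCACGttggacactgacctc

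Among the 9 genes with an ERSE, Hspa5, Calr, Pdia6, Creld2 and Dnajc3 fell, Syvn1 rose, and Hsp90b1, Canx and Derl3 did not pass. The 55.6% that fell lies near the 50% of all 32 genes, beside 27.2% of all genes, and the median log2 fold change of the 9 was -0.25, beside -0.24 for the 32. Of the ERSE-II genes Dnajb11 fell and Herpud1 did not pass. The element began at -65 in Hspa5, -98 in Pdia6, -162 in Calr and -44 in Syvn1, counted from the RefSeq start, and the ERSE-II of Dnajb11 lay past its start, at 7 to 17. Hsp90b1, with sites at -212 and -107, was the 1 gene of the 28 with a pair of exact sites. The element reads in the opposite orientation (CGTGG first) in Calr, Creld2, Derl3 and the proximal site of Hsp90b1. A match describes letters in a window and is not a bound site. The stretch before the start is given for Calr and Pdia6, which fell, and for Syvn1, which rose, with the ERSE in capitals; it ends before the first annotated exon base of GENCODE M21 and lies on the same build.
Calr (chr8:84846935-84847181, minus strand): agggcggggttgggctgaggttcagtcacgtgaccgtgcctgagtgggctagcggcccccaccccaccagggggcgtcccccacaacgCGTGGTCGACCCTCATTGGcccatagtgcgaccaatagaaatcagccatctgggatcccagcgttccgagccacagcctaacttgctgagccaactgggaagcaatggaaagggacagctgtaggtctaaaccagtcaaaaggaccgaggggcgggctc
Pdia6 (chr12:17266339-17266544, plus strand): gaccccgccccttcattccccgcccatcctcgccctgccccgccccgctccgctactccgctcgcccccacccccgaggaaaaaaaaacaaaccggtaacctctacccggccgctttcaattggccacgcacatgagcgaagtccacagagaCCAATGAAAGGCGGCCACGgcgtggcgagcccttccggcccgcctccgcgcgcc
Syvn1 (chr19:6046326-6046575, plus strand): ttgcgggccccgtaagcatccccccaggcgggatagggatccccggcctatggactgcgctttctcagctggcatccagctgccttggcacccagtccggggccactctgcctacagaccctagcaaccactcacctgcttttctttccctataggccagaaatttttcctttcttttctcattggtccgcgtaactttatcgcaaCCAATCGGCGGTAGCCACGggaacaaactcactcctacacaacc

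Of 9 chaperones and cofactors 7 fell, 0 rose and 2 did not pass, beside 27.2% fallen and 27.7% risen among all genes. Under scaling to total counts 4 of the 9 fell and 1 rose. Hspa5 encodes BiP, the main chaperone of the lumen and the protein that holds the sensors inactive. It was at 250, 222, 234, 203 and 255 CPM in wild type libraries 1 to 5 and at 162, 169, 139 and 175 CPM in SMA libraries 1 to 4. All 4 SMA libraries were below all 5 wild type libraries, with SMA 3 the lowest of all. The log2 fold change of Hspa5 was -0.53 ± 0.097, where ± gives the standard error (edgeR adjusted p = 6.52e-04). Hsp90b1 encodes GRP94, the lumenal Hsp90 that folds a narrower set of clients. Its level was 204, 184, 196, 177 and 193 CPM in wild type and 177, 165, 135 and 182 CPM in SMA. The ranges overlap, and only SMA 3 lay far below wild type. Its log2 fold change of -0.21 ± 0.096 did not pass (edgeR adjusted p = 0.0814), and 10.3% of its annotated exon bases overlap a pseudogene on the opposite strand.

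The cofactors of BiP fell by different amounts. Sdf2l1, a partner of BiP and its J-domain proteins, had the largest fold among the 32 genes and a low level. It was at 1.89, 2.87, 2.48, 2.31 and 2.16 CPM in wild type and 1, 1.01, 1.45 and 0.702 CPM in SMA, which rests on 43 to 89 and 25 to 52 counts per library. The groups did not overlap, and SMA 4 was the lowest. Sdf2l1 fell by 1.17 ± 0.22 on the log2 scale (edgeR adjusted p = 9.36e-04). Manf, a secreted stress factor that also binds BiP, was at 23.8, 25.4, 25.7, 27.5 and 24.3 CPM in wild type and 13.2, 13.6, 17.1 and 14.9 CPM in SMA. No SMA library reached the lowest wild type library, and SMA 3 was the highest of the SMA libraries, the reverse of its place for Hspa5. Manf fell by 0.78 ± 0.090 (edgeR adjusted p = 2.19e-05).

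The J-domain proteins, which bring clients to BiP and start its ATP cycle, did not move together. Dnajb11 (ERdj3) was at 45.8 to 50.2 CPM in wild type and 31.7 to 34.7 CPM in SMA, and fell by 0.51 ± 0.065 on the log2 scale (edgeR adjusted p = 4.97e-05). Dnajc3 (P58IPK), which also inhibits PERK, was at 47.4 to 57.6 and 38.1 to 48.7 CPM. These ranges overlap, and its call at a log2 fold change of -0.25 ± 0.086 (edgeR adjusted p = 0.0277) was lost without wild type 5 (0.051), SMA 1 (0.0576), SMA 2 (0.0588) or SMA 3 (0.0627), with sex as a covariate (0.0925), and under scaling to total counts, where the change was -0.01. Dnajb9 (ERdj4), a classical target of spliced Xbp1, was at 16.1, 20.7, 22.9, 23.3 and 27.5 CPM in wild type and 28.0, 27.2, 23.3 and 27.1 CPM in SMA. Wild type spread widely, and the SMA libraries lay in its upper range or, for SMA 1, just above it. Its log2 fold change of 0.26 ± 0.13 did not pass (edgeR adjusted p = 0.108), but passed without wild type 5, at 0.35 with 0.025, and was 0.49 with 0.00365 under scaling to total counts. Hyou1, the nucleotide exchange factor GRP170, fell by 0.34 ± 0.068, and Creld2, a stress-induced isomerase-like protein, by 0.30 ± 0.088, with edgeR adjusted p-values of 0.00128 and 0.0112; both lost the call under scaling to total counts, with -0.11 and -0.07.

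**Figure D2:**
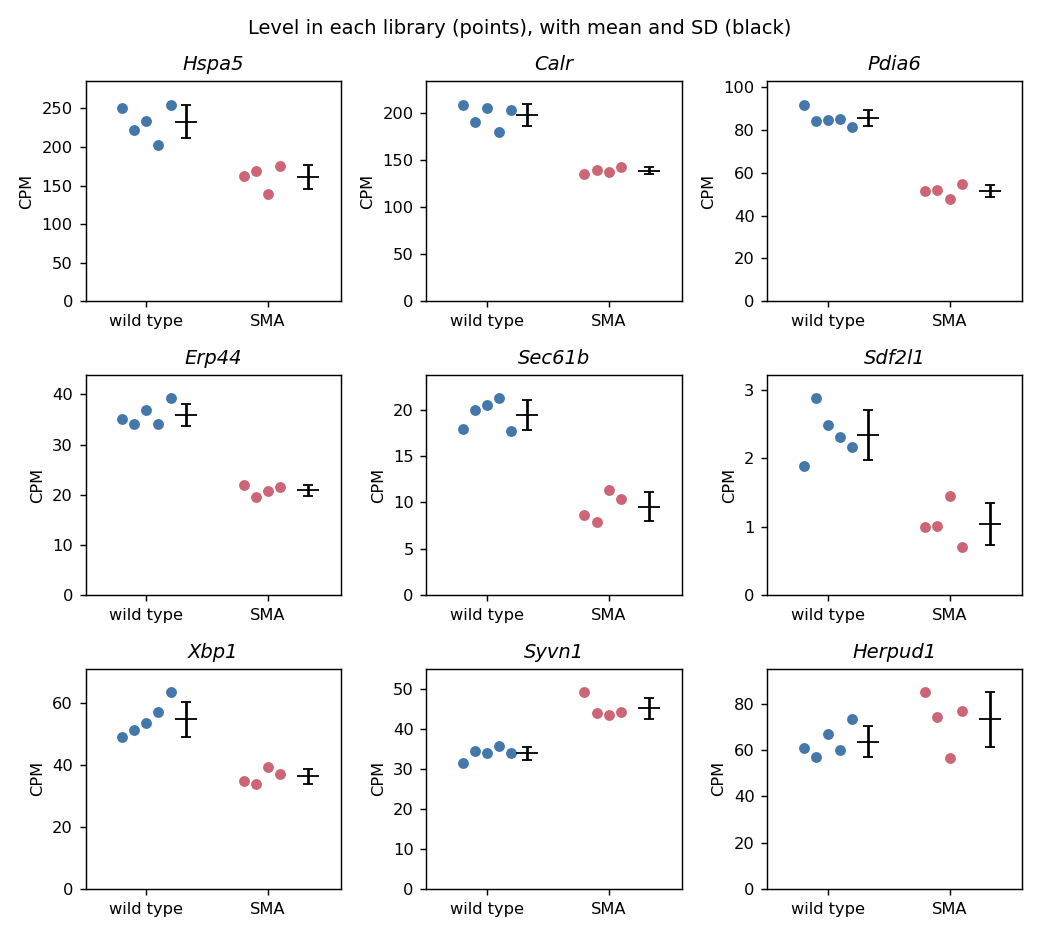
Level of 9 genes in every library in CPM of the scaled total, with the mean and SD of each group (5 wild type, 4 SMA). The groups separate for all of them except Herpud1, whose SMA 3 library at 56.7 CPM lies below the wild type libraries.

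Disulfide isomerases of the general folding path fell, while the isomerase that is also a subunit of collagen prolyl hydroxylase did not pass. Pdia6, which also limits IRE1 signalling, was at 91.7, 84.3, 84.4, 85.1 and 81.2 CPM in wild type and 51.4, 51.8, 47.9 and 54.9 CPM in SMA. The gap between the groups was wider than the range within either group. Pdia6 fell by 0.73 ± 0.069 on the log2 scale (edgeR adjusted p = 4.95e-06). Erp44, which retains client proteins and oxidases in the early secretory path, was at 35.1, 34.1, 36.8, 34.2 and 39.2 CPM in wild type and 22.0, 19.6, 20.7 and 21.5 CPM in SMA. It fell by 0.78 ± 0.073 (edgeR adjusted p = 4.55e-06), again without overlap. Pdia4 (ERp72) fell by 0.69 ± 0.080, from 22.9 to 27.7 CPM in wild type to 15.1 to 16.5 CPM in SMA. Pdia3 (ERp57), the isomerase that works with the lectin chaperones on glycoproteins, fell by 0.50 ± 0.076, from 114 to 129 CPM to 78.3 to 92.5 CPM.

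P4hb encodes the founding disulfide isomerase, which is also the beta subunit of collagen prolyl 4-hydroxylase. It was at 282, 275, 275, 258 and 244 CPM in wild type and 282, 288, 259 and 289 CPM in SMA. The libraries of the groups were interleaved, and its log2 fold change was 0.07 ± 0.079 (edgeR adjusted p = 0.499). Under scaling to total counts P4hb was called higher, at 0.30 with an edgeR adjusted p of 0.0182. Ppib, the lumenal cyclophilin that helps collagen fold, was at 53.1, 55.2, 47.6, 51.8 and 38.3 CPM in wild type and 43.5, 41.5, 38.3 and 43.2 CPM in SMA. Wild type 5 alone lay among the SMA libraries. The change of -0.24 ± 0.10 did not pass (edgeR adjusted p = 0.0625), and without wild type 5 it was -0.32 with 0.00342; 25% of the exon bases of Ppib are shared with Snx22 on the opposite strand, and whether counting used strand is not given in the sources used here. Ero1l, the oxidase that recharges disulfide isomerases, was the 1 member of this role that rose. Its level was 12.7, 14.1, 13.0, 13.1 and 13.5 CPM in wild type and 14.8, 15.4, 17.8 and 16.7 CPM in SMA. Every SMA library was above every wild type library, and Ero1l rose by 0.28 ± 0.081 on the log2 scale (edgeR adjusted p = 0.0109), a call lost with sex as a covariate (0.0595).

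In the lectin cycle, which holds newly made glycoproteins until they are folded, the soluble lectin fell and the membrane-bound one did not pass. Calr encodes calreticulin, which also buffers calcium in the lumen. It was at 209, 191, 205, 180 and 203 CPM in wild type and 135, 140, 137 and 143 CPM in SMA. The SMA libraries were close to each other and far below wild type, and Calr fell by 0.51 ± 0.074 on the log2 scale (edgeR adjusted p = 1.32e-04). Canx, its membrane-bound relative calnexin, was at 121, 119, 126, 116 and 121 CPM in wild type and 116, 115, 100 and 125 CPM in SMA. The ranges overlap and SMA 3 was the lowest. The change was -0.08 ± 0.078 (edgeR adjusted p = 0.407). Uggt1, the sensor that returns unfolded glycoproteins to the lectins, was at 36.8 to 38.2 CPM in wild type and 33.4 to 36.3 CPM in SMA. These ranges do not overlap, yet the log2 fold change of -0.13 ± 0.062 did not pass (edgeR adjusted p = 0.0917). Under scaling to total counts Canx and Uggt1 changed sign, to 0.15 and 0.10, and neither passed.

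All 3 translocation genes fell, beside 27.2% of all genes, and did so under every alternative that was run. Sec61b, the beta subunit of the channel through which new proteins enter, was at 17.9, 20, 20.5, 21.2 and 17.7 CPM in wild type and 8.59, 7.85, 11.3 and 10.4 CPM in SMA. The SMA libraries lay well below wild type, with SMA 3 the highest of them. Sec61b fell by 1.03 ± 0.12 on the log2 scale (edgeR adjusted p = 1.88e-05). Ssr1, the alpha subunit of the translocon-associated complex, was at 99.8, 94.9, 98.0, 91.6 and 87.0 CPM in wild type and 56.3, 53.4, 61.3 and 60.8 CPM in SMA, and fell by 0.70 ± 0.074 (edgeR adjusted p = 1.07e-05). Serp1, which protects new membrane proteins at the translocon during stress, fell by 0.67 ± 0.076, from 33.3 to 40.8 CPM to 21.9 to 24.3 CPM (edgeR adjusted p = 1.95e-05).

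Among the sensors, Xbp1 fell, while Ern1 and Atf6 did not pass. A difference between these genes was not tested. Xbp1 was at 49.0, 51.2, 53.5, 57.1 and 63.5 CPM in wild type and 34.9, 33.8, 39.2 and 37.2 CPM in SMA. The groups did not overlap, and Xbp1 fell by 0.60 ± 0.088 on the log2 scale (edgeR adjusted p = 1.46e-04). Gene counts do not separate spliced from unspliced Xbp1, so its activity was not measured. Ern1, which encodes the kinase and nuclease IRE1 alpha, was at 5.19, 6.03, 5.30, 4.16 and 6.02 CPM in wild type and 6.24, 8.36, 5.28 and 7.92 CPM in SMA. SMA 3 lay within the wild type range and the other SMA libraries above it. The change of 0.38 ± 0.16 did not pass (edgeR adjusted p = 0.0588), but passed without SMA 3 (0.49 with 0.0133), without wild type 5 (0.43 with 0.0481) and under scaling to total counts (0.61 with 0.00665). Atf6 was at 34.2 to 42.3 CPM in wild type and 28.6 to 37.4 CPM in SMA, with a log2 fold change of -0.23 ± 0.093 (edgeR adjusted p = 0.0573) that passed without wild type 4 (0.0321) or SMA 2 (0.0305) and was 0.01 under scaling to total counts.

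Of the 7 degradation genes 1 rose, 0 fell and 6 did not pass, beside 27.7% risen and 27.2% fallen among all genes; under scaling to total counts 6 of them rose and 0 fell. A difference between these genes and the folding genes was not tested. Syvn1 encodes HRD1, the ubiquitin ligase and channel of the main degradation complex. It was at 31.4, 34.4, 34.1, 35.7 and 34.0 CPM in wild type and 49.2, 44.0, 43.6 and 44.2 CPM in SMA. All SMA libraries were above all wild type libraries, with SMA 1 the highest. Syvn1 rose by 0.42 ± 0.069 on the log2 scale, or 1.33-fold (edgeR adjusted p = 3.43e-04). Sel1l, the adaptor that HRD1 needs, was at 58.7 to 72.8 CPM in wild type and 64.4 to 71.5 CPM in SMA, with a change of 0.07 ± 0.076 (edgeR adjusted p = 0.453). Under scaling to total counts Sel1l was called higher, at 0.31 with an edgeR adjusted p of 0.00652.

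Herpud1, a stress-induced organiser of the HRD1 complex, depended on 1 library and on the scaling. It was at 60.9, 56.9, 67.0, 60.1 and 73.4 CPM in wild type and 85.0, 74.3, 56.7 and 77.1 CPM in SMA. SMA 3 was the lowest of all 9 libraries, and the other SMA libraries were above every wild type library. The change of 0.20 ± 0.11 did not pass (edgeR adjusted p = 0.154), but without SMA 3 it was 0.31 with 0.0135. Under scaling to total counts, with SMA 3 kept, Herpud1 passed at 0.44. Derl1 and Derl2, membrane proteins of the exit path, had changes of 0.08 ± 0.065 and -0.12 ± 0.079. Edem1, which marks glycoproteins for degradation by trimming mannose, had a change of 0.07 ± 0.082. These 3 did not pass. Under scaling to total counts Derl1 (0.32, edgeR adjusted p = 0.00442) and Edem1 (0.30, edgeR adjusted p = 0.0296) were called higher. Derl2 was at 0.12 there and did not pass. Derl3, a member of the same family that is strong in secretory cells, had 3 to 11 counts per wild type library and 12 to 21 per SMA library, or 0.22, 0.355, 0.114, 0.384 and 0.106 CPM and 0.601, 0.453, 0.475 and 0.337 CPM. Its log2 fold change of 0.95 ± 0.38 did not pass (edgeR adjusted p = 0.0521), with overlap between SMA 4 and the 2 highest wild type libraries; it passed without wild type 2 (0.036), wild type 4 (0.0267) or SMA 4 (0.0497), and with limma-voom (0.0358).

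**Figure D3:**
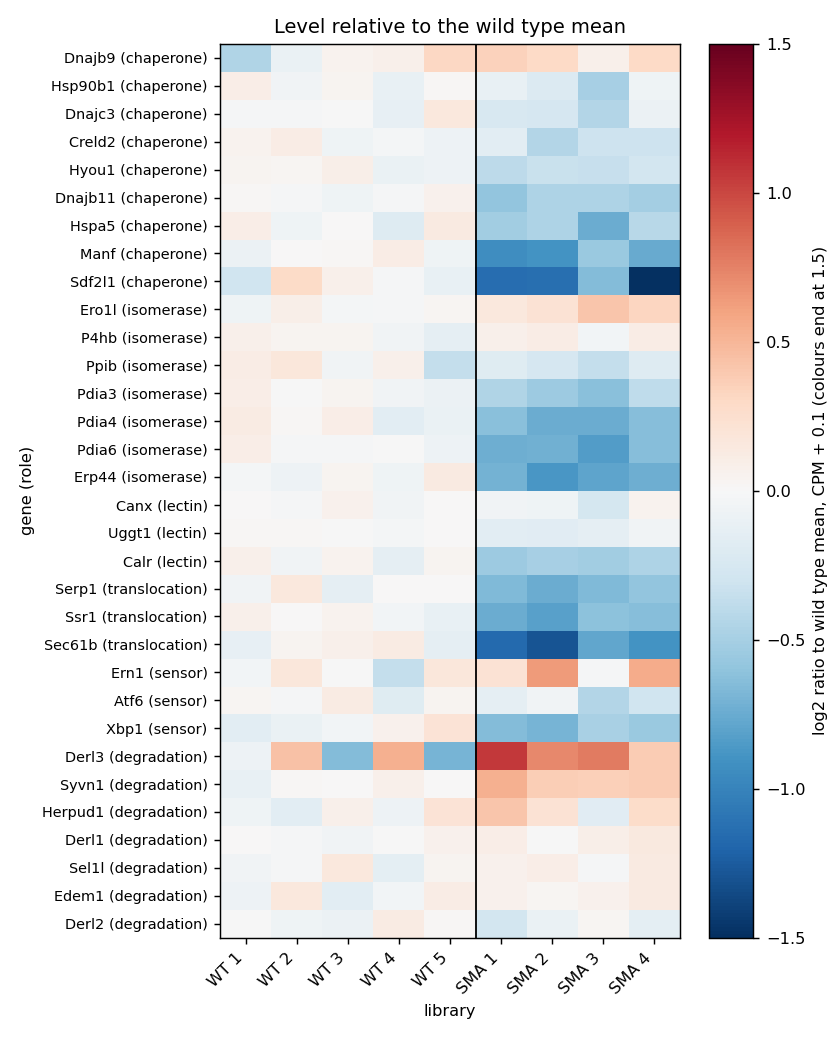
Level of each gene in each library as a log2 ratio to the wild type mean, with 0.1 CPM added to both; colours end at 1.5. The 3 translocation genes and most chaperones and isomerases are below the wild type mean in every SMA column; Dnajb9 and Ero1l are above it in all of them and P4hb in 3 of 4. Syvn1 and Derl3 are above it in all SMA columns, while Derl2 is below it in 3 of 4.

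The libraries of a group did not vary alike across the 32 genes. SMA 3 was the lowest SMA library for 15 genes, among them Hspa5, Hsp90b1, Canx and Herpud1, and the highest for 7, among them Manf, Sdf2l1, Sec61b and Xbp1. SMA 4 was the highest SMA library for 14 genes. The mean log2 level (CPM + 1) of the 7 degradation genes was 4.63 to 4.72 in wild type and 4.77 to 4.86 in SMA, that of the 9 chaperones 5.14 to 5.23 and 4.78 to 4.85, and that of the 3 translocation genes 5.31 to 5.45 and 4.48 to 4.73. With both wild type 5 and SMA 3 left out, 16 genes fell and 5 rose, the latter count against 2 with all libraries.

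Levels between genes were compared per length, as RPKM (CPM per kilobase of the exons of GENCODE M21), since longer transcripts give more reads. P4hb was the most abundant of the 32 in both groups, at 93.3 ± 5.45 RPKM in wild type and 97.7 ± 4.84 RPKM in SMA (SD, n = 5 and 4). Calr followed at 68.6 ± 4.15 and 48.2 ± 1.14 RPKM. Hspa5, at 55.1 ± 4.99 RPKM, stood above Hsp90b1, at 47.3 ± 2.60 RPKM, in wild type, and below it in SMA, at 38.1 ± 3.71 against 40.8 ± 5.23 RPKM, a difference smaller than their SDs. At the other end were Derl3 at 0.118 ± 0.0654 and 0.234 ± 0.0544 RPKM and Ern1 at 0.653 ± 0.0941 and 0.850 ± 0.176 RPKM. Syvn1 was at 6.98 ± 0.321 and 9.31 ± 0.543 RPKM.

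Genes of related functions outside the 32 were counted in 7 lists. Among 34 other chaperones and folding enzymes 19 fell and 6 rose (11 and 8 under scaling to total counts), with Tmx2, a membrane thioredoxin-like protein, at -1.13 ± 0.14 and Sdf4, a calcium-binding protein of the secretory path, at 0.48 ± 0.066 on the log2 scale. Of 27 genes of the translocon, signal recognition and signal peptidase 13 fell and 4 rose, which turned to 2 and 8 under scaling to total counts. Srprb, a subunit of the signal recognition particle receptor, was at -0.60 ± 0.072 and Get4, of the path for tail-anchored proteins, at 0.83 ± 0.080. Of 24 N-glycosylation genes 15 fell and 2 rose (6 and 4 under scaling to total counts), with Gmppb, which makes GDP-mannose, at -1.53 ± 0.16 and Dpm2, of dolichol-mannose synthesis, at 0.30 ± 0.084, which did not pass with sex as a covariate (adjusted p = 0.0842 by edgeR). Beside these counts stand 27.2% lower and 27.7% higher calls over all genes, and the lists were chosen with earlier results of these data known.

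Other genes of degradation were higher more often than lower. Of 26 tested, 12 rose and 2 fell, and 15 and 1 under scaling to total counts. Among all genes 27.7% rose and 27.2% fell. Vimp, now called Selenos, which links the degradation ATPase to the membrane, was at 25.1, 25.6, 26.5, 25.4 and 23.6 CPM in wild type and 61.7, 65.9, 73.6 and 67.6 CPM in SMA. All SMA libraries were far above the highest wild type library, and Vimp rose by 1.41 ± 0.072 on the log2 scale (edgeR adjusted p = 7.39e-08). Edem3, which trims mannose like Edem1, fell by 0.56 ± 0.11.

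Of 20 genes of the PERK arm and other stress transducers 3 rose, 3 fell and 14 did not pass. Beside them stand 27.7% risen and 27.2% fallen among all genes. Under scaling to total counts 9 of the 20 rose and 3 fell. Ppp1r15a, which encodes GADD34, the phosphatase subunit that restores translation, was at 18.9, 19.5, 16.5, 15.4 and 19.3 CPM in wild type and 47.6, 39.1, 37.8 and 41.0 CPM in SMA. It rose by 1.21 ± 0.096 on the log2 scale without overlap (edgeR adjusted p = 1.36e-06). The genes of its textbook activators did not pass: PERK (Eif2ak3) had 0.01 ± 0.11, Atf4 -0.06 ± 0.084 and Ddit3, the stress factor CHOP, 0.06 ± 0.087. These 3 were looked up after the data were seen. Gene counts do not show how active their proteins are, so the activity of this arm was not measured. Atf3 was at 24.9, 13.6, 12.9, 11 and 41.2 CPM in wild type and 5.47, 9.48, 5.95 and 9.83 CPM in SMA. Wild type 5 was the highest library, and Atf3 fell by 1.43 ± 0.37 (edgeR adjusted p = 0.0065), by 1.02 without wild type 5, and did not pass with sex as a covariate (0.0675).

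Of 18 genes that modify collagen in the endoplasmic reticulum 11 fell and 3 rose, beside 27.2% and 27.7% of all genes. Under scaling to total counts 5 of the 18 fell and 5 rose, so the balance depends on the scaling. Serpinh1, the collagen chaperone HSP47, was at 269, 286, 247, 235 and 218 CPM in wild type and 106, 107, 109 and 104 CPM in SMA, and fell by 1.23 ± 0.092 on the log2 scale (edgeR adjusted p = 8.54e-07). Tmem38b, an ion channel of the same membrane, rose by 0.89 ± 0.12. These genes moved beside the fibroblast and matrix markers, of which 12 of 14 fell, and 6 of 14 under scaling to total counts. The part of those cells in the result was not tested.

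**Figure D4:**
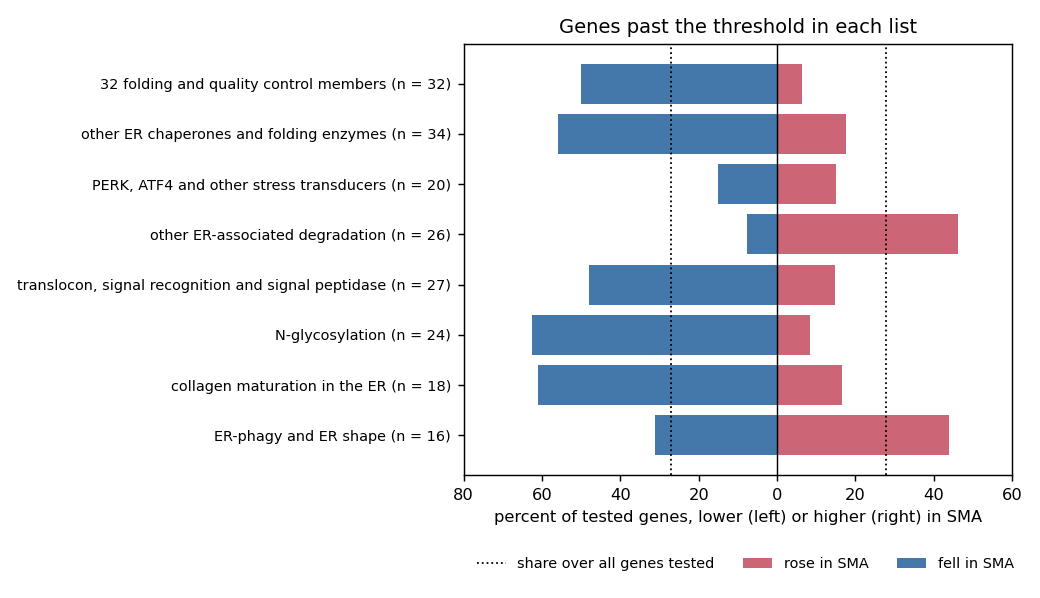
Percent of tested genes that fell (left) or rose (right) in SMA for the 32 genes and 7 related lists, with dotted lines at the shares over all genes, 27.2% and 27.7%. The other folding, translocon, glycosylation and collagen lists extend past the left line, other degradation genes past the right one, and ER-phagy and ER shape past both, at 31.2% and 43.8%.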

How the data were processed

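RNA of 9 hindlimb muscle libraries was analysed from the deposited table of whole-number counts per gene, which were not normalized. The authors' tools, per the submitters' processing notes, include HTSeq 0.9.1, DESeq2 1.16.1 and build mm10, with no role stated; the sources used here do not give aligner, annotation or strand setting. Replicates of a group differed by more than sampling noise (chi-square per degree of freedom from 12 to 87.5). In R 4.3.3 with edgeR 4.0.16, filterByExpr left 15873 genes, libraries were scaled by TMM (trimmed mean of M values), and group alone entered the quasi-likelihood fit, with p-values adjusted by Benjamini-Hochberg (threshold 0.05). As standard error was used the log2 fold change divided by the square root of F. Alternatives used limma 3.58.1, DESeq2 1.42.0, other scalings, filters, covariates and left-out libraries. On simulated counts with 200 genes changed edgeR recovered 52.2% of 1.5-fold, 86.6% of 2-fold and 100% of 4-fold changes among 15730 genes, with 8 unchanged genes called. In the data 54.9% of genes were called, a far larger share than was changed in the simulation. The adjusted p threshold was therefore stricter there, and these recovery rates do not carry over to the data. Gene lists held 287 entries, of which 286 matched. All 32 members are named; from each related list the largest rise and fall among called genes with at least 5 CPM in a group are named. Members and lists were chosen with earlier results of these data known. Other genes were named after their values were seen.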

Additional observations from a re-analysis of the deposited data

Results flagged for a closer look

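Each of 47 named genes was checked in both groups, 94 groups in all, for a library whose gap to its nearest neighbour took most of the group's range; chance flags about 1 in 20 groups, and 5 were found. Syvn1 was at 49.2 CPM in SMA 1, against 43.6 to 44.2 CPM in the other SMA libraries. Smn1 was at 11.1 CPM in wild type 4, against 13.1 to 13.8 CPM in the other wild type libraries. Sdf4 was at 82.5 CPM in wild type 3, against 89.5 to 92.0 CPM, and Tmx2 at 39.4 CPM in wild type 2, against 43.6 to 45.1 CPM. Rtn1, a reticulon that bends the membrane, was at 18.9 CPM in SMA 3, against 3.06 to 3.37 CPM in the other SMA libraries.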

How the results depend on the processing

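Of 32 genes, 14 kept their call under all 18 alternatives, 13 lower and 1 higher. The count of higher genes, 2, was 10 under scaling to total counts, 1 with sex as a covariate, 5 without wild type 5 and SMA 3, and 2 to 4 when 1 library was left out (4 without wild type 5 and 4 without SMA 3); the count of lower genes, 16, was 15 to 17 in these left-out fits. Scaling to total counts lowered the count of all lower genes from 4319 to 2164, and turned Hsp90b1 to 0.02, Derl2 to 0.12, Canx to 0.15, Uggt1 to 0.10 and Atf6 to 0.01. With the replicate block Dnajc3 lost its call (adjusted p = 0.0982 by edgeR), Dnajb9 (0.0443) and Ppib (0.00913) gained one, 3 of the 32 genes rose and 16 fell, and 3973 and 3906 of all genes. The replicate numbers did not pair the samples: deviations of same-numbered libraries correlated at -0.05 to 0.12 over 4 pairs, with 1 wild type library and 0 SMA libraries closest to their own number. Depth limits Derl3 and Sdf2l1, the genes with the fewest counts.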

Other observations

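ER-phagy sends parts of the endoplasmic reticulum to lysosomes, through receptors some of which also shape its tubules and sheets. Of 16 genes of ER-phagy and ER shape 7 rose, 5 fell and 4 did not pass (9 and 5 under scaling to total counts), beside 27.7% and 27.2% of all genes. Fam134b, now called Retreg1, a receptor for sheets, had a mean of 131 ± 14 CPM in 5 wild type and 402 ± 65.5 CPM in 4 SMA libraries (SD), and rose by 1.62 ± 0.12 on the log2 scale, with its SE. Calcoco1 rose by 1.49 ± 0.12, Ccpg1 by 0.77 ± 0.11, Tex264 by 0.64 ± 0.077, Atl1 by 0.55 and Fam134a by 0.45. The sheet spacer Ckap4 fell by 1.29 ± 0.13, the fusion GTPase gene Atl2 by 0.84 ± 0.14, the junction protein gene Lnp by 0.69 ± 0.087, Reep5 by 0.72 and the reticulon gene Rtn4 by 0.61 ± 0.11. Fam134c (0.13), Rtn3 (0.13), Rtn2 (-0.11) and Atl3 (-0.19) did not pass. Rtn1 rose by 1.90 ± 0.52, and by 0.75 without SMA 3, and did not pass with limma-voom (adjusted p = 0.0528) or with sex as a covariate (edgeR adjusted p = 0.117). Apart from Rtn1 and Ckap4, these genes were named after their values were seen.

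The ERSE was also found in promoters of 21 genes of the count table outside the 32, of which 12 were tested. Of these 5 fell and 2 rose, beside 27.2% fallen and 27.7% risen among all genes tested. The median log2 fold change of the 12 was -0.29. Of the 5 that fell, 3 were the similar copies Xlr3a, Xlr3b and Xlr3c, among which reads may be divided. Outside the 32 genes, 6 tested genes had an ERSE-II, of which 5 rose and 1 fell, beside those same shares. Krtcap2, a subunit of the N-glycosylation complex, was the 1 that fell, by 0.39 on the log2 scale. These genes were looked up after the data were seen, and a match of letters does not show that a factor binds there.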
